A study of Mus musculus with 6 samples.

Results

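Blood vessels of white adipose tissue (WAT) were followed here through 40 genes, in mice kept under control conditions and in mice put through timed sleep restriction (TSR). The list holds 25 endothelial genes, 10 genes of angiogenic ligands and their co-receptors, and 5 genes of mural cells. Members were all probe sets of the array that the annotation ties to exactly 1 of these symbols. This gave 60 probe sets for 38 genes, out of 22690 probe sets for 12394 genes on the whole array. Gpihbp1 and Mmrn2 matched no probe set, and 2 probe sets that share a member's symbol with other symbols were left out.

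The arrays held RNA of epididymal WAT from wild-type C57BL/6 mice. The mice were male, as the methods state. All tissue was taken at Zeitgeber time (ZT) 18, the middle of the dark phase. Control mice (3 arrays) were left to sleep, while TSR mice (3 arrays) were kept awake by gentle handling for 6 hours at the start of the light phase on 5 consecutive days and were killed on the last of them. Neither the labels nor the methods say whether RNA of several animals was pooled on an array, so that the p-values reflect the scatter of these arrays alone, which may be technical.

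Endothelial cells line the vessels and hold together through junction proteins such as VE-cadherin (Cdh5) and claudin 5 (Cldn5). Mural cells, that is pericytes around capillaries and smooth muscle cells around larger vessels, lie on their outer side. Endothelial receptors read ligands of the VEGF and angiopoietin families, and PDGF-B made by endothelial cells draws in mural cells through PDGFR-beta (Pdgfrb). In adipose tissue, adipocytes and stromal cells are a source of VEGF-A, and the capillary bed supplies the fat cells with lipids and hormones.

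Values are MAS5 signals, which the authors' software scales to 1 common mean per array and which compare 1 probe set between arrays, never different probe sets with each other. Each fold change is the mean log2 signal in TSR minus that in control, with the standard error (SE) of limma's fit. A gene is said to have risen or fallen where limma with Benjamini-Hochberg adjustment over all 14707 probe sets tested gave an adjusted p under 0.05. The probe sets with the lowest 35% of mean log2 signals were not tested. Each gene is read from its brightest tested probe set, and 37 members had one. Angpt1, the ligand that activates the receptor Tek, was left with a single dim probe set at 21.7, 6.57 and 18.9 on control and 19.9, 14.6 and 1.95 on TSR arrays.

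Of the 37 tested members, 9 rose in TSR, 18 fell and 10 did not pass the test. Over all 8619 genes tested the same way, 47.0% were called, 24.0% higher and 23.0% lower. The control and TSR arrays did not overlap in 26 of the 37 members, against 56.8% of all genes. The median log2 fold change was -0.21 over the members and 0.01 over all genes. By probe set, 13 of the 53 tested member probe sets were called higher and 21 lower, where 46.6% of all probe sets were called in either direction. The split of calls over all genes moved with the scaling, from 51.1% higher as deposited to 43.8% after quantile normalization and 31.3% after median centring, which also moved the median of all genes to -0.10. No member that was called changed its sign under either scaling.

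The 3 classes differed in how their members moved. Of 23 tested endothelial genes, 5 rose, 13 fell and 5 did not pass, with a median log2 fold change of -0.25. Of 9 tested angiogenic genes, 4 rose, 1 fell and 4 did not pass, with a median of 0.16. That median was 0.058 after quantile normalization, 0.053 after median centring and 0.059 without control replicate 3. All 4 that rose encode ligands, and the 1 that fell encodes a co-receptor. Of 5 mural genes, none rose and 4 fell, with a median of -0.35. Counts were fewer for endothelial genes that rose in several alternatives (3 in place of 5), and for angiogenic genes that fell they reached 4 after median centring. These are counts and medians of lists, and the difference between classes was not tested. In whole tissue, fewer cells of a type and less RNA per cell cannot be told apart.

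**Figure D1:**
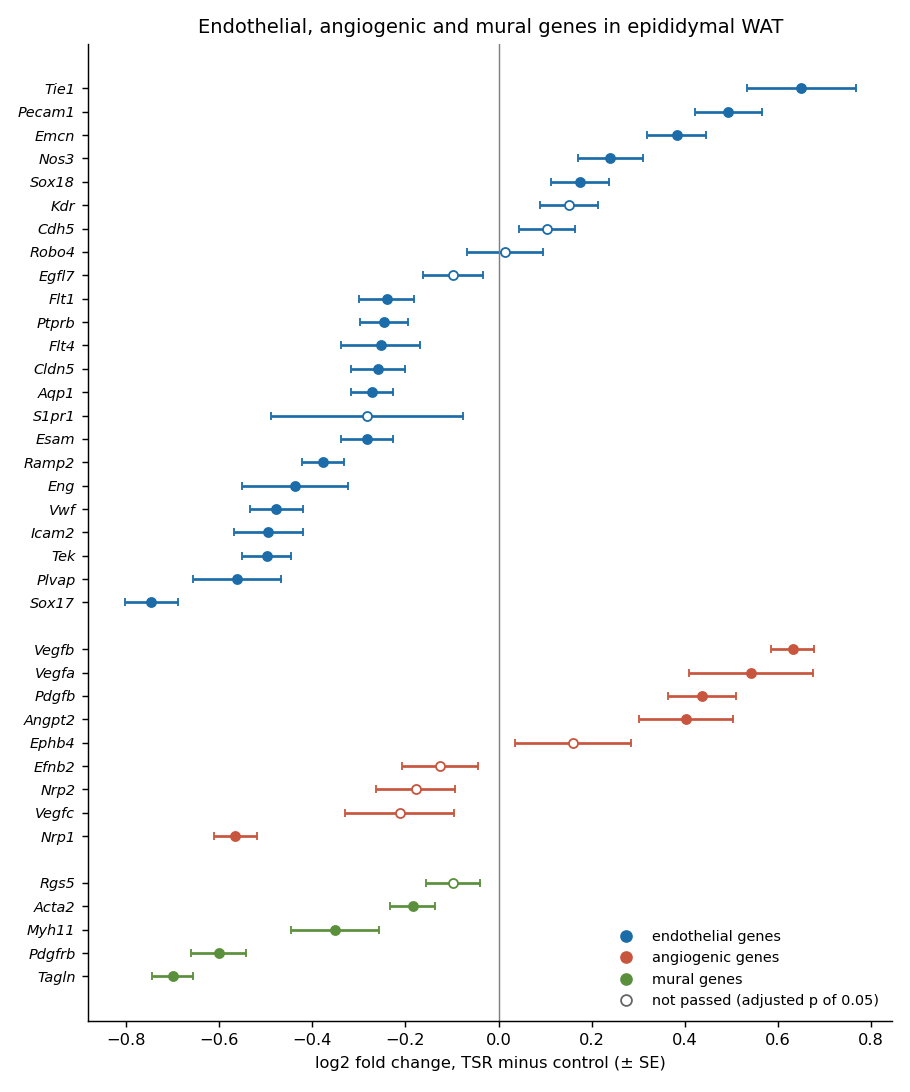
Log2 fold change, TSR minus control, of each tested member by its brightest probe set (x axis; bars are the SE of limma's fit, 3 arrays per group), grouped into endothelial, angiogenic and mural genes. Filled points passed the test at an adjusted p of 0.05. Points run from -0.75 for Sox17 to 0.65 for Tie1, and the 4 angiogenic ligands that rose stand to the right of every mural gene.

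Class medians were also taken on each array. The median over the endothelial genes of log2 signal minus control mean was -0.23, -0.19 and -0.23 on the TSR arrays, and it stayed between -0.03 and 0.05 on the control arrays. For the mural genes it was -0.39, -0.29 and -0.37 on the TSR arrays. For the angiogenic genes it was 0.06, 0.26 and 0.16, a wider spread. For the 6 tested ligands among them it was 0.38, 0.35 and 0.40. The same median over all genes lay between 0.00 and 0.02 on the TSR arrays.

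Among the 10 measured endothelial junction, adhesion and surface genes, 6 fell, 2 rose and 2 did not pass the test. Plvap, which encodes the protein of the diaphragms that span endothelial pores and caveolae, had signals of 733, 892 and 765 on control arrays and 545, 482 and 592 on TSR arrays. Every TSR array lay below every control array. Its mean signal fell by 32.3%, from 797 ± 84.4 to 539 ± 55.2 (SD, n = 3), a log2 fold change of -0.56 ± 0.09 (SE; limma, Benjamini-Hochberg adjusted p = 0.0014). Icam2, an adhesion molecule that leukocytes bind on resting endothelium, read 526, 616 and 601 on control and 404, 399 and 431 on TSR arrays. The groups were again apart, and the log2 fold change was -0.49 ± 0.07 (limma, adjusted p = 0.00074).

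Pecam1 (CD31), the adhesion molecule most used to mark endothelium, went the other way. It read 455, 453 and 528 on control arrays and 647, 683 and 688 on TSR arrays, so that all TSR arrays were higher. Its mean rose by 40.5%, a log2 fold change of 0.49 ± 0.07 (limma, adjusted p = 0.00063). Emcn, the sialomucin of capillary and venous endothelium, rose as well, with a log2 fold change of 0.38 (limma, adjusted p = 0.0013). Both genes encode surface glycoproteins of endothelial cells, as do several genes of this list that fell.

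Aqp1 encodes the water channel of continuous capillary endothelium. Its signals were 4929, 5307 and 5135 on control arrays and 4145, 4327 and 4252 on TSR arrays. All TSR arrays were lower, and the spread within each group was small beside the gap. The mean fell by 17.2%, a log2 fold change of -0.27 ± 0.05 (limma, adjusted p = 0.0013). Vwf, the von Willebrand factor stored in endothelial granules, fell by 0.48 on the log2 scale. Esam and Cldn5, both of the tight junction, fell by 0.28 and 0.26 on that scale. Cdh5, the adherens junction cadherin, had a log2 fold change of 0.10 and an adjusted p of 0.19 by limma, and Egfl7, a protein that endothelial cells secrete, had one of -0.10 with an adjusted p of 0.24. Both overlapped between groups.

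Of the 8 endothelial signalling genes, 4 fell, 2 rose and 2 did not pass. Sox17, a transcription factor of arterial endothelium, had the largest change among all members when each is read from its brightest probe set. By its brightest probe set it read 1170.3, 1123 and 1109 on control arrays and 643, 725 and 662 on TSR arrays. No TSR array came near the control range, and the mean fell by 40.3%, a log2 fold change of -0.75 ± 0.06 (limma, adjusted p = 1.8e-05). A dimmer probe set of Sox17 gave -0.19 with an adjusted p of 0.15 by limma and overlapping groups. Sox18, a related factor of blood and lymphatic endothelium, had a log2 fold change of 0.18 with overlapping groups (limma, adjusted p = 0.045), and this call was lost in 11 of 15 alternatives.

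Eng encodes endoglin, a co-receptor for TGF-beta and BMP9. Its brightest probe set read 689, 689 and 542 on control arrays and 524, 477 and 414 on TSR arrays. The lowest control array stood just above the highest TSR array. The log2 fold change was -0.44 ± 0.11 (limma, adjusted p = 0.012), whereas the other probe set of Eng gave 0.09 (adjusted p = 0.30). Ptprb, the phosphatase VE-PTP that acts on Tek and VE-cadherin, read 2132, 2221 and 2063 on control and 1820.1, 1888 and 1705 on TSR arrays, again without overlap, a log2 fold change of -0.25 ± 0.05 (limma, adjusted p = 0.0046). Ramp2, the subunit that turns the calcitonin receptor-like receptor into an adrenomedullin receptor, fell by 0.38 on the log2 scale. Nos3, the endothelial nitric oxide synthase, rose by 0.24 on that scale, a call that 7 of 15 alternatives did not keep. Robo4 (log2 fold change 0.01) and S1pr1 (-0.28, with 1 TSR array at 177 beside 309 and 331) did not pass.

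Among the 5 growth factor receptors of endothelium, 3 fell, 1 rose and 1 did not pass. The receptors of the angiopoietin system moved in opposite directions. Tie1, the orphan receptor that pairs with Tek, read 131, 147 and 116 on control arrays and 195, 197 and 225 on TSR arrays. All TSR arrays were higher, with a log2 fold change of 0.65 ± 0.12 (limma, adjusted p = 0.0020). This was the largest rise among the members by brightest probe set. Tek (Tie2), the receptor that binds the angiopoietins, read 1126, 1024 and 1077 on control arrays and 744, 756 and 785 on TSR arrays. Its mean fell by 29.2%, a log2 fold change of -0.50 ± 0.05 (limma, adjusted p = 0.00011). Neither gene overlapped between groups.

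The VEGF receptors showed smaller differences. Kdr (VEGFR2), the main signalling receptor for VEGF-A, read 1185, 1337 and 1198 on control arrays and 1451, 1304 and 1377 on TSR arrays. The groups overlapped, and the log2 fold change of 0.15 ± 0.06 did not pass (limma, adjusted p = 0.074). Flt1 (VEGFR1), which binds VEGF-A and VEGF-B and whose soluble form traps them, fell by 0.24 on the log2 scale (limma, adjusted p = 0.010). A second probe set of Flt1 fell by 0.47, and another near the filter gave -0.16 without passing. Flt4 (VEGFR3), the VEGF-C receptor of lymphatic endothelium, fell by 0.25, and 7 of 15 alternatives did not keep that call.

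**Figure D2:**
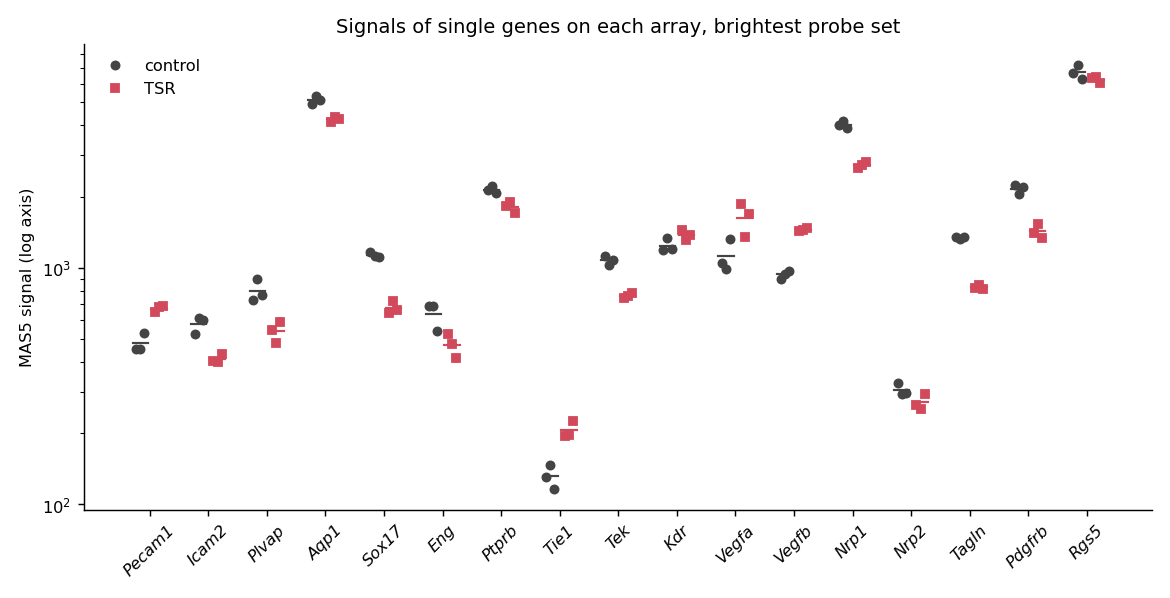
MAS5 signal (y axis, log scale) on each of 3 control arrays (circles) and 3 TSR arrays (squares) for genes named in the text, by brightest probe set; short lines are group means. Circles and squares do not mix for Tie1, Tek, Sox17, Vegfb, Nrp1 or Tagln, and they mix for Kdr, Nrp2 and Rgs5.

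Of the 6 tested angiogenic ligands, 4 rose and none fell. Vegfb, a ligand of Flt1 and Nrp1, read 900.0, 942 and 967 on control arrays and 1428, 1446 and 1478 on TSR arrays. The groups were far apart, with a mean that rose by 54.9% and a log2 fold change of 0.63 ± 0.05 (limma, adjusted p = 1.3e-05). Vegfa, the chief driver of vessel growth, read 1047, 986 and 1322 on control and 1861, 1345 and 1683 on TSR arrays. The highest control array nearly reached the lowest TSR array. Its log2 fold change was 0.54 ± 0.13 (limma, adjusted p = 0.0096). The test that the study's methods name did not keep this call, and the second probe set of Vegfa gave 0.50 with an adjusted p of 0.091 by limma.

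Pdgfb, the endothelial ligand for mural cells, rose from a mean signal of 335 ± 23.8 to 453 ± 14.7 (SD, n = 3), a log2 fold change of 0.44 (limma, adjusted p = 0.0012), and its dimmer probe set rose as well, by 0.65. Angpt2, the context-dependent antagonist of Tek, rose from 160.1 ± 8.94 to 212 ± 19.0, a log2 fold change of 0.40 (limma, adjusted p = 0.010). Vegfc, the lymphatic ligand of Flt4, had a log2 fold change of -0.21 (adjusted p = 0.16). Efnb2, the arterial ephrin that binds Ephb4, had a log2 fold change of -0.13 by its brightest and 0.20 by its other tested probe set. Neither Vegfc nor Efnb2 passed the test.

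Of the 3 co-receptors and guidance receptors, only Nrp1 passed. Nrp1, which holds VEGF-A to its receptors and also serves semaphorins, read 4028, 4157 and 3877 on control arrays and 2628, 2718 and 2804 on TSR arrays. No TSR array reached the control range, and the mean fell by 32.4%, a log2 fold change of -0.57 ± 0.05 (limma, adjusted p = 2.4e-05). Its 2 other probe sets fell too, by 0.48 and 0.32 on the log2 scale. Nrp2, the neuropilin of veins and lymphatics, read 325, 293 and 297 on control arrays and 263, 253 and 294 on TSR arrays. The highest TSR array lay within the control range, and the log2 fold change of -0.18 ± 0.09 did not pass (limma, adjusted p = 0.12). Ephb4, the venous partner of ephrin-B2, did not pass either, at 0.16 (limma, adjusted p = 0.32).

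Set side by side, ligand and receptor took opposite signs in the pairs where both were called. This follows from the calls above, since every called ligand rose and every called receptor with a ligand among the members fell. The pairs therefore add nothing to those calls. Vegfb rose while Flt1 and Nrp1 fell, Vegfa rose while Flt1 and Nrp1 fell, Angpt2 rose while Tek fell, and Pdgfb rose while Pdgfrb fell. Kdr, Nrp2, Vegfc, Efnb2 and Ephb4 were not called, so no such statement can be made for their pairs. Tie1, which has no ligand among the members, was the sole receptor that rose.

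**Figure D3:**
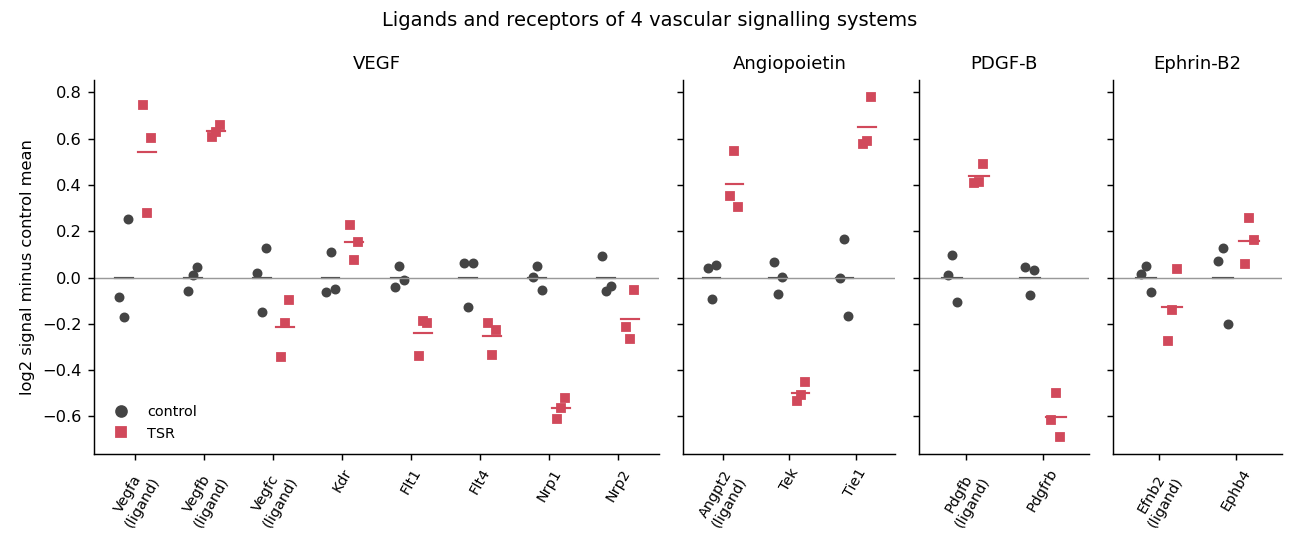
Log2 signal minus the control mean (y axis) on each control array (circles) and TSR array (squares) for ligands and receptors of the VEGF, angiopoietin, PDGF-B and ephrin-B2 systems; short lines are group means. Vegfa, Vegfb, Angpt2 and Pdgfb have all TSR arrays above the control arrays, and Flt1, Flt4, Nrp1, Tek and Pdgfrb have all TSR arrays below them.

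All 5 mural genes had a lower mean in TSR, and 4 of them fell. Tagln (SM22), an actin-binding protein of smooth muscle, read 1354, 1325 and 1349.6 on control arrays and 824, 846 and 809.8 on TSR arrays. Its groups were narrow and far apart, with a mean that fell by 38.4% and a log2 fold change of -0.70 ± 0.04 (limma, adjusted p = 4.9e-06). Pdgfrb, the PDGF-B receptor of pericytes that other stromal cells carry as well, read 2227, 2045 and 2204 on control and 1407, 1525 and 1339.8 on TSR arrays. Every TSR array was lower, with a log2 fold change of -0.60 ± 0.06 (limma, adjusted p = 6.9e-05). A dimmer probe set of Pdgfrb gave -0.18 (limma, adjusted p = 0.058). Acta2, smooth muscle actin, fell by 0.18 and Myh11, smooth muscle myosin, by 0.35 on the log2 scale. The Myh11 call was lost with the methods' test and without TSR replicate 1, which left 3 mural genes called.

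Rgs5, a regulator of G protein signalling that marks pericytes, depended on the probe set. Its brightest probe set read 6618, 7176 and 6256 on control arrays and 6313, 6389 and 6021 on TSR arrays, which overlapped and did not pass (log2 fold change -0.10 ± 0.06; limma, adjusted p = 0.20). The other 3 probe sets of Rgs5 rose without overlap. The largest rise, at the dimmest of them, went from 259.5, 247 and 307 to 507, 520.3 and 566, a log2 fold change of 0.98 ± 0.09 (limma, adjusted p = 5.3e-05). At the second brightest the signals went from 749, 843 and 809 to 1023, 1049 and 1012, a log2 fold change of 0.36 (limma, adjusted p = 0.00081). The remaining one gave 0.28 (limma, adjusted p = 0.016). A direction for Rgs5 as a gene cannot be given from these arrays, and with any of its dimmer probe sets the mural genes would count 4 lower and 1 higher.

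Across the 10 members with several tested probe sets, the dimmest had a more positive log2 fold change than the brightest in 8, against 69.2% of all 3236 genes with several tested probe sets. Signs differed between probe sets of Efnb2, Egfl7, Eng and Rgs5. In no member were probe sets called in opposite directions.

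**Figure D4:**
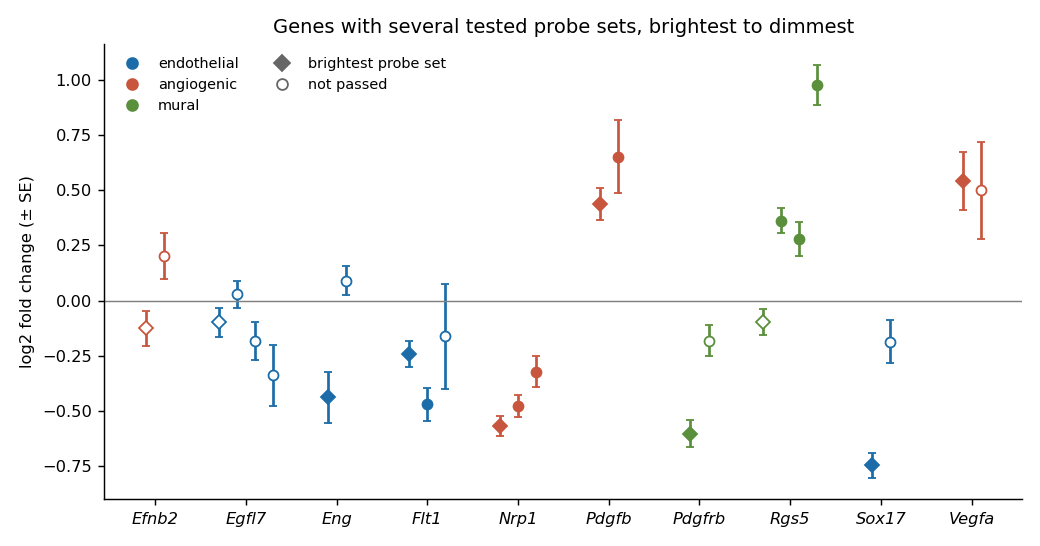
Log2 fold change, TSR minus control, of every tested probe set (y axis; bars are the SE of limma's fit) for the 10 members with several, each gene from its brightest (diamond) to its dimmest; filled symbols passed the test. Rgs5 runs from -0.10 to 0.98, while the 3 probe sets of Nrp1 all lie below 0.

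Promoter sequence is shown for the called genes with the largest rise or fall in the endothelial and angiogenic classes that had a RefSeq entry upstream of all their annotated starts. Sequences are from RefSeq (GRCm38.p6), which gave promoters for 20 of the 40 members in 23 windows of 250 bases before the start. Capitals mark the letters CACCC, a core bound by Kruppel-like factors (KLF), and CGGAAG, a core bound by ETS factors, each read on both strands. Tie1 had the largest rise and Eng the largest fall among the endothelial genes with such an entry, and Vegfb had the largest rise among the angiogenic genes. Tek and Nrp1 fell by more than Eng and each have an entry, but the window does not lie upstream of all their annotated starts, so neither is shown.
Tie1 promoter, chr4:118489850-118490099 (minus strand): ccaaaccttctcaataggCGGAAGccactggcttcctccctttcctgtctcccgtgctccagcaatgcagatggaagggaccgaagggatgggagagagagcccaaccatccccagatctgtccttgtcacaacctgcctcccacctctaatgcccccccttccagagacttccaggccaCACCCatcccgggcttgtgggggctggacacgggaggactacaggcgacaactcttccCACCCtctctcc
Eng promoter, chr2:32646345-32646594 (plus strand): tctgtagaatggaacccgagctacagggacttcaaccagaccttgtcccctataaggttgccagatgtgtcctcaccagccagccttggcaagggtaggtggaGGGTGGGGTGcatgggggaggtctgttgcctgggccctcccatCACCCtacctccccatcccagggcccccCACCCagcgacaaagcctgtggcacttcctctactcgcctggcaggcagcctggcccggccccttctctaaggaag
Vegfb promoter, chr19:6987652-6987901 (minus strand): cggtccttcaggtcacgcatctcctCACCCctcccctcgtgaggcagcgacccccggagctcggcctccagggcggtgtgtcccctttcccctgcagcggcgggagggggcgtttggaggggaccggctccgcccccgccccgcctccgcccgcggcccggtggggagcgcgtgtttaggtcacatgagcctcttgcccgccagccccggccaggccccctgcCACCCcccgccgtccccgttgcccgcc

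The Tie1 window held CGGAAG at -232 to -227 and CACCC at -70 to -66 and -12 to -8, counted from the start site. The Eng window held CACCC 4 times, at -147 to -143, -142 to -138, -104 to -100 and -76 to -72, the first 2 of them on the opposite strand. The Vegfb window held it at -225 to -221 and -27 to -23. CACCC was found in 18 of the 23 member windows (78.3%) and in 52.0% of all 32851 windows of that length. CGGAAG was found in 1 member window (4.35%) and in 13.6% of all. ACGTG, the core of the hypoxia element, was found for Vegfa alone (4.35%, against 16.6% of all), and the E-box CACGTG, which contains it, in none (6.02% of all). The CArG box of serum response factor, searched without mismatches, was in no member window and in 1.47% of all. Among the mural genes only Rgs5 and Acta2 had a window, so Tagln, Myh11 and Pdgfrb were not searched. Members that rose and members that fell both held CACCC, and a match of letters is a description, not a site of binding.

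Further vessel genes, outside the members, were counted from pathway lists. Of 13 tested other endothelial markers, 8 fell and none rose, with a median log2 fold change of -0.23. Among all 15 measured, 4 had a higher mean log2 signal in TSR. Esm1, of the same list, lay below the filter and is not in the count of tested genes. Its mean signal was 2.92 on control and 52.0 on TSR arrays. Vcam1, an adhesion molecule for leukocytes, fell by 1.53 on the log2 scale, Ctla2a by 0.89 and Icam1 by 0.85. All 3 tested lymphatic endothelial markers fell, by 0.99 for the hyaluronan receptor Lyve1, 0.92 for Reln and 0.49 for Pdpn. Of the 4 measured, 1 had a higher mean log2 signal in TSR. Lyve1 is also carried by adipose macrophages. Of 10 endothelial transcription factors, 5 fell and none rose, with Mef2c at -0.63, the flow-responsive factor Klf2 at -0.46 and Tal1 at -0.40. Over all genes tested, 47.0% were called. Fli1 did not pass by its brightest probe set (-0.10), while a dimmer one was called higher, by 0.36 (limma, adjusted p = 0.0034).

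In the Notch list, which governs the choice between tip and stalk cells, 2 of 10 tested genes rose, 1 fell and 7 did not pass. For comparison, 47.0% of all genes tested were called in either direction. The ligands Jag1 and Dll4 rose by 0.90 and 0.57 on the log2 scale (a second probe set of Dll4, of nearly equal signal, rose by 1.38), the ligand Dll1 fell by 0.36, and the target gene Hes1 at 0.37 did not pass (limma, adjusted p = 0.091). In the TGF-beta and BMP list, 3 of 10 rose and 2 fell, among them the inhibitory Smad7 at 0.78, Tgfb1 at 0.46 and the BMP target Id1 at -0.45. Of 7 angiogenesis inhibitors, 3 rose and 2 fell. The 3 that rose were the thrombospondin Thbs2 at 1.86, the protease Adamts1 at 0.84 and Col18a1, the precursor of endostatin, at 0.42. A dimmer probe set of Thbs2 gave -0.16 and did not pass.

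Genes of the hypoxia pathway, which regulates Vegfa, were mixed. Of 12 tested, 2 rose, 4 fell and 6 did not pass, where 47.0% of all genes tested were called. The median log2 fold change of the 12 was -0.01. One of those that fell, Ndrg1, was called lower by its brightest probe set alone (-0.14), while its 4 other probe sets were all called higher, by 0.19 for the nearest to it in signal and by more for the rest. Ddit4 fell by 1.35 and adrenomedullin (Adm), the ligand of the receptor that Ramp2 forms, by 0.69, while Vhl rose by 0.82. Of 13 other angiogenic ligands and receptors, 3 rose and 4 fell. Angptl4, which inhibits lipoprotein lipase at the capillary wall, fell by 49.9%. On the log2 scale the chemokine Cxcl12 fell by 0.63 and the apelin receptor Aplnr by 0.51. Of 20 other mural markers, 5 rose, 4 fell and 11 did not pass, with a median of -0.03. Cspg4 (NG2), the pericyte proteoglycan, rose by 0.97, while the guanylate cyclase subunit Gucy1a1 fell by 1.21 and tropomyosin 2 (Tpm2) by 0.76. The wider mural list therefore did not share the median of the 5 member genes. Its difference from them was not tested.

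**Figure D5:**
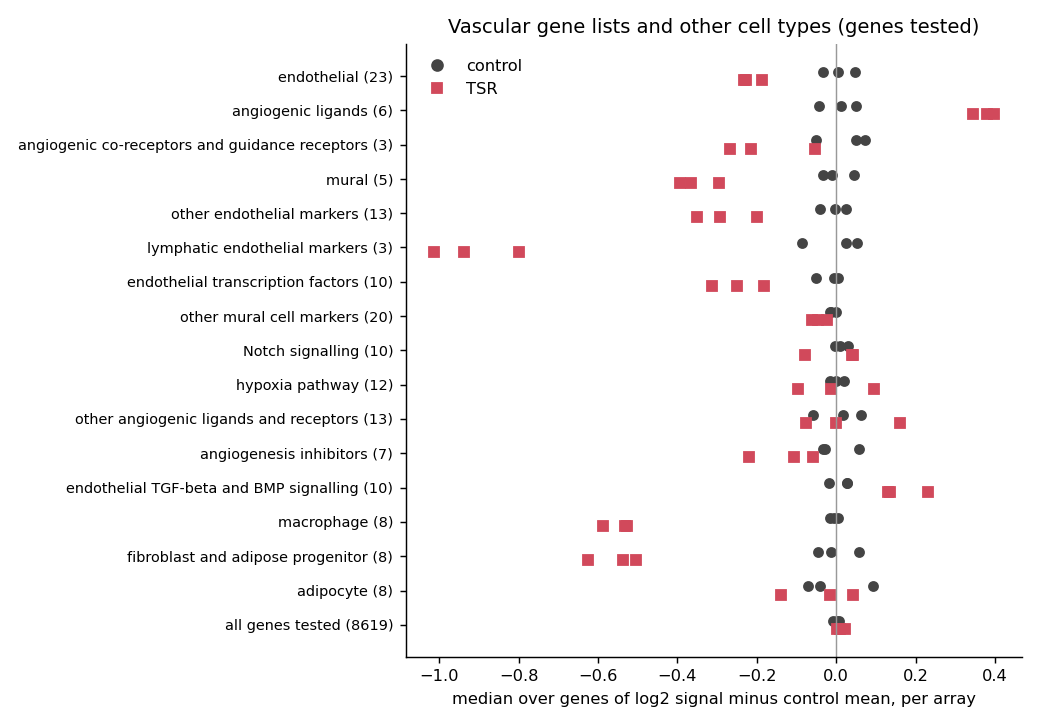
Median over the tested genes of each list of log2 signal minus control mean (x axis) on each control array (circles) and TSR array (squares), with the number of genes in brackets. The endothelial list lies between -0.23 and -0.19 on TSR arrays, the angiogenic ligands between 0.35 and 0.40, the macrophage list near -0.55, and all genes near 0.

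Markers of other cells moved with the groups, as did many genes: 56.8% of all genes tested did not overlap between groups. Each of 12 hepatocyte markers was higher on all TSR arrays than on all control arrays, and their summed signal was 397 to 471 on control and 11741 to 12396 on TSR arrays. Of 8 markers of liver sinusoidal endothelium, Stab2, Clec4g, Oit3, Clec1b, Dnase1l3 and Wnt2 were below the filter, and Fcgr2b and Bmp2 fell. Without overlap, 1 of the 8 was higher and 4 were lower on TSR arrays, and 3 had a higher mean log2 signal in TSR. The sum was lower in TSR (711 to 812 against 1648 to 1791). With 6 of the 8 below the filter, this sum does not describe the list as a whole. All 8 macrophage markers were lower on TSR arrays (sum 12964 to 13113 against 18962 to 19524), as were 7 of 8 markers of fibroblasts and adipose progenitors (29321 to 32008 against 43556 to 47151). The remaining 1 of these, Pi16, was higher on all TSR arrays, with a log2 fold change of 2.21. Among 8 adipocyte markers, 3 were higher and 4 lower without overlap (sum 67092 to 78698 on TSR against 76009 to 90185 on control arrays). Of 9 skeletal muscle markers 7 were below the filter. Only 1 of the 9 was higher without overlap, and 2 were lower. Their summed signal rose from between 603 and 662 to between 2059 and 2139. The largest log2 fold change of the 2 tested was 2.23, so the sum does not describe the list as a whole. Of 5 dividing cell markers, 4 were lower without overlap (sum 174 to 188 against 425 to 473), and 1 had a higher mean log2 signal in TSR. In this list 2 were below the filter. Of 5 lymphocyte and of 5 mesothelial markers, 1 was higher and 2 were lower in each list. Of 3 red blood cell markers, 1 was higher and 0 lower. The part of these other cells in the vascular results was not tested.

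Signs of RNA quality also differed. The log2 signal of the 5′ probe set minus that of the 3′ probe set was -0.52 ± 0.07 for Gapdh on control and 0.13 ± 0.05 on TSR arrays, and -1.22 ± 0.01 and -0.67 ± 0.0013 for beta-actin (SD, n = 3). Its part in the member values was not tested. Since 3 arrays against 3 cannot give a two-sided exact permutation p under 0.1, single genes rest on the fit across all probe sets.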

How the data were processed

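Deposited values were MAS5 signals of the Affymetrix mouse expression array, made by the authors: a linear intensity per probe set, scaled so that the trimmed mean was 500.2 on all 6 arrays, with array medians of 127 to 141. Tool version and genome build are not given in the sources used here. The labels name liquid nitrogen and Trizol, and the study's methods another fixative and kit, so the extraction is not settled. Probe sets were named through GEO's platform annotation (20393 with 1 symbol, 691 with several, 1606 with none). Of these, 20364 had an Entrez number in RefSeq and 0 symbols changed.

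From these intensities, log2 was taken with no pseudocount (the lowest signal was 1). After removal of 64 control probe sets and of the lowest 35% by mean log2 signal (under 5.45), 14707 were fitted with limma 3.58.1 in R 4.3.3 (lmFit, eBayes with intensity trend, two-sided), 3 TSR against 3 control arrays, without a block, and adjusted by Benjamini-Hochberg. The equal-variance test of the study's methods, on linear and on log2 signals, was an alternative, as were limma without trend, quantile normalization, median centring, other filters, a floor, a replicate block and leaving out each array. On simulated signals of 14707 probe sets, the test found 60 of 100 that were shifted by 0.5 and 81 of 100 that were shifted by 1 (log2), with 9 false calls. No other probe sets were shifted, and spreads were shuffled between probe sets, whereas 46.6% of probe sets were called on the real arrays. The simulated figures therefore do not give the recovery or false calls of the real comparison. The number of arrays limits the precision.

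Genes named with their array values were, in each of 6 role lists, the 2 with the largest change, the one whose probe set gave the highest signal, and any with opposite calls, in addition to genes noted with them. Pathway and cell type lists were given by counts and up to 3 genes. Members, lists and rules were chosen with earlier results of these data known. List counts carry no test of their own.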

Additional observations from a re-analysis of the deposited data

Results flagged for a closer look

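Cdh5 (VE-cadherin) was singled out because a signal appeared in a probe set that the comparison did not use. It lay below the filter on dim signals and read 39.3, 24.8 and 28.1 on control arrays and 60.1, 55.7 and 47.9 on TSR arrays, with a TSR mean of 54.6. All TSR arrays were higher, whereas the brighter, tested probe set of Cdh5 overlapped between groups (log2 fold change 0.10).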

How the results depend on the processing

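Of the 27 members called, 21 kept their call and direction under all 15 alternatives, and none of the 27 changed sign. Calls were lost for Sox18 under 11 alternatives, for Nos3 and Flt4 under 7 each, for Myh11 under 3 and for Eng and Vegfa under both forms of the methods' test. The endothelial genes called higher were 3 in place of 5 under both forms of the methods' test (linear and log2), under limma with no trend and under median centring, and 3 to 5 with 1 array left out (3 without control replicate 1 or TSR replicate 2). The angiogenic genes called lower were 3 after quantile normalization and 4 after median centring in place of 1, and 1 to 2 with 1 array left out (2 without TSR replicate 3). Median log2 fold changes moved to -0.36 for endothelial genes after centring, where all genes had -0.10, to 0.058 after quantile normalization and 0.053 after centring for angiogenic genes, and to -0.44 and -0.46 for mural genes. With 1 array left out, the medians ran from 0.059 (without control replicate 3) to 0.22 for angiogenic and from -0.41 (without control replicate 3) to -0.25 (without control replicate 2) for mural genes. The cause was not tested. Same-numbered control and TSR arrays deviated together only weakly (r = 0.02, 0.19 and 0.17), so the numbers were not taken as pairs. Arrays of unlike number gave r from -0.22 to 0.06, below the 0.19 and 0.17. With the replicate number as a replicate block, 14 member probe sets were called higher and 22 lower, Sox18 was lost and Cdh5 and Rgs5 were gained. Signals near background limit what can be read for Angpt1 and for the 7 member probe sets below the filter.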

Other observations

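Esm1 (endocan), a secreted product of endothelial tip cells, was named after its values were seen. Its probe set lay below the filter, with a mean signal of 2.92 ± 0.473 on control arrays and 52.0 ± 1.03 on TSR arrays (SD, n = 3). Against the 25th percentile of the control arrays' signals, taken as a floor, this was at least 2.35-fold higher in TSR.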
